A study of Homo sapiens with 4 samples.

Results

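The miR-10, miR-99/100 and miR-125 group comprises 7 mature miRNAs, hsa-miR-10a-5p, hsa-miR-10b-5p, hsa-miR-99a-5p, hsa-miR-99b-5p, hsa-miR-100-5p, hsa-miR-125a-5p and hsa-miR-125b-5p, of 851 human miRNAs among the 939 miRNAs on the array. They were picked by name, as relatives in sequence, and the group was selected on values of these arrays that were already known, so the differences between MG and non-MG cells given for its members are a description without a test. The members were divided by the genes they lie beside. The Hox-linked members were miR-10a and miR-10b, and the let-7-linked members were the other 5. MG cells are the highly migratory and non-MG cells the poorly migratory subpopulation that the study separated from HCT116, a human colon cancer line with wild type p53. Both subpopulations came from repeated selection in transwell chambers, so each stands for the cells that 1 selection left from 1 line. Total RNA from 2 MG samples and 2 non-MG samples, with no further treatment named, was labelled with Cy3 and hybridised to 1-colour Agilent human miRNA arrays, 1 array for each sample. Nothing in the sources used here says that the samples of a group were separate cultures, so the spread between them may be technical.

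Mature miRNAs are short RNAs that guide Argonaute proteins to messenger RNAs, and pairing of the seed, bases 2 to 8 from the 5′ end, is the main determinant of which messages are repressed. The miR-10 genes lie inside the clusters of HOX genes, which encode transcription factors that set position along the body axis. The miR-99/100 genes stand in clusters in which a miR-99/100 gene, a let-7 gene and a miR-125 gene follow each other and can be made from one long primary transcript. The let-7 miRNAs are known for promoting differentiation and repressing growth genes, and miR-125 is the vertebrate relative of lin-4, the first miRNA described in the nematode. In tumours, miR-10b is known chiefly for its link to invasion, and miR-99a and miR-100 for repression of the kinase mTOR.

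Mature sequences from RefSeq (GRCh38.p14) matched 6 of the 7 members by name. They are shown, 5′ to 3′ with the seed in capitals, because some members differ by few bases and a probe may bind a close relative.
hsa-miR-10a-5p: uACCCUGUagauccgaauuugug
hsa-miR-99a-5p: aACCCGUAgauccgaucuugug
hsa-miR-99b-5p: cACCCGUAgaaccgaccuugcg
hsa-miR-100-5p: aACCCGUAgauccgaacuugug
hsa-miR-125a-5p: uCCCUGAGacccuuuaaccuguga
hsa-miR-125b-5p: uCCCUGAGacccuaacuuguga

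The seed ACCCGUA was shared by miR-99a, miR-99b and miR-100, which were all 3 human miRNAs that carry it in the RefSeq table. The seed CCCUGAG was shared by miR-125a and miR-125b, and miR-4319 was the other of its 3 human carriers. The seed ACCCUGU of miR-10a was found in no other human entry of that table. The mature form of hsa-miR-10b-5p was not matched there, so its seed and its distance from miR-10a could not be read. Whether miR-10a has this seed to itself is therefore not known from that table. Positions are counted from 1 at the 5′ end. Between miR-99a and miR-100 the only substitution was U16A, whereas miR-99a and miR-99b differed by A1C, U11A, U16C and U21C. The edit distance, the number of single-base changes that turns one sequence into the other, was 3 between miR-10a and miR-100 and 3 between miR-125a and miR-125b. Binding of a probe by a relative was not tested on these arrays.

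In the RefSeq annotation, MIR10A lies on chromosome 17 within HOXB3, between HOXB4 and HOXB5, and MIR10B lies on chromosome 2 between HOXD8 and HOXD4. MIR99A, MIRLET7C and MIR125B2 lie within the host gene MIR99AHG on chromosome 21. MIR100, MIRLET7A2 and MIR125B1 lie within MIR100HG on chromosome 11. MIR99B, MIRLET7E and MIR125A lie within SPACA6 and SPACA6-AS1 on chromosome 19. The mature miR-125b is made from 2 genes and let-7a from 3 genes, so the array signal of either cannot be assigned to a cluster.

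Each array held 15024 miRNA spots, of which 8.71% to 11.1% were well above background, and none was saturated. Precision is limited throughout by the number of arrays. The non-MG arrays lay in row 1 of the slide, in columns 3 and 4, and the MG arrays in row 2, in columns 1 and 2. The effects of row, column and group cannot be told apart. Of 4 miRNAs typical of epithelium and gut, miR-200c-3p and miR-141-3p were detected on all 4 arrays and miR-192-5p and miR-194-5p on none. None of 5 miRNAs typical of blood, muscle or liver was detected on any array. The signal of a miRNA was the sum of its background-subtracted probe intensities, with a probe counted where it was above 3 times its error, scaled to the same 75th percentile on each array. Fold changes divide the geometric mean of the MG arrays by that of the non-MG arrays, and an SD on the log2 scale is pooled over both groups.

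All 7 members were detected on all 4 arrays. The minimum signal that the study names, 50 before scaling on any 1 array, was reached by 3 of the 7, miR-10a, miR-100 and miR-125b. For miR-10a the unscaled signals were 35.2 and 36.1 in the non-MG samples and 69.6 and 70.9 in the MG samples. It thus passed through the MG arrays alone and had to differ between the groups to pass. Levels of different miRNAs are not compared, since each probe binds with its own strength.

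The Hox-linked members were both higher in MG cells on these arrays, but by very different amounts. Scaled signals of miR-10a, whose gene sits among the anterior genes of the HOXB cluster, were 33.3 and 38.1 in the non-MG samples and 68.5 and 72.1 in the MG samples. Both MG arrays lay well above both non-MG arrays, with a gap several times the spread within either group. The means were 35.7 ± 3.35 (SD, n = 2) in non-MG cells and 70.3 ± 2.57 (SD, n = 2) in MG cells, a fold change of 1.97 with a pooled SD of 0.10 on the log2 scale. Among the 115 human miRNAs detected on all 4 arrays, this was rank 2 from the highest change.

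Scaled signals of miR-10b, the counterpart in the HOXD cluster, were 9.36 and 8.40 in the non-MG samples and 10.04 and 9.81 in the MG samples. The MG arrays lay above the non-MG arrays by a narrow margin, and the fold change was 1.12 with a pooled SD of 0.08 on the log2 scale. The scanner's own error of these signals was 15.2% to 21.6% of the value, which is more than the difference. Before scaling the groups of miR-10b overlapped, with 9.88 and 7.97 in the non-MG samples and 10.2 and 9.64 in the MG samples. The difference in log2 change between miR-10a and miR-10b was 0.82, with an SD of 0.18 over the arrays.

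**Figure D1:**
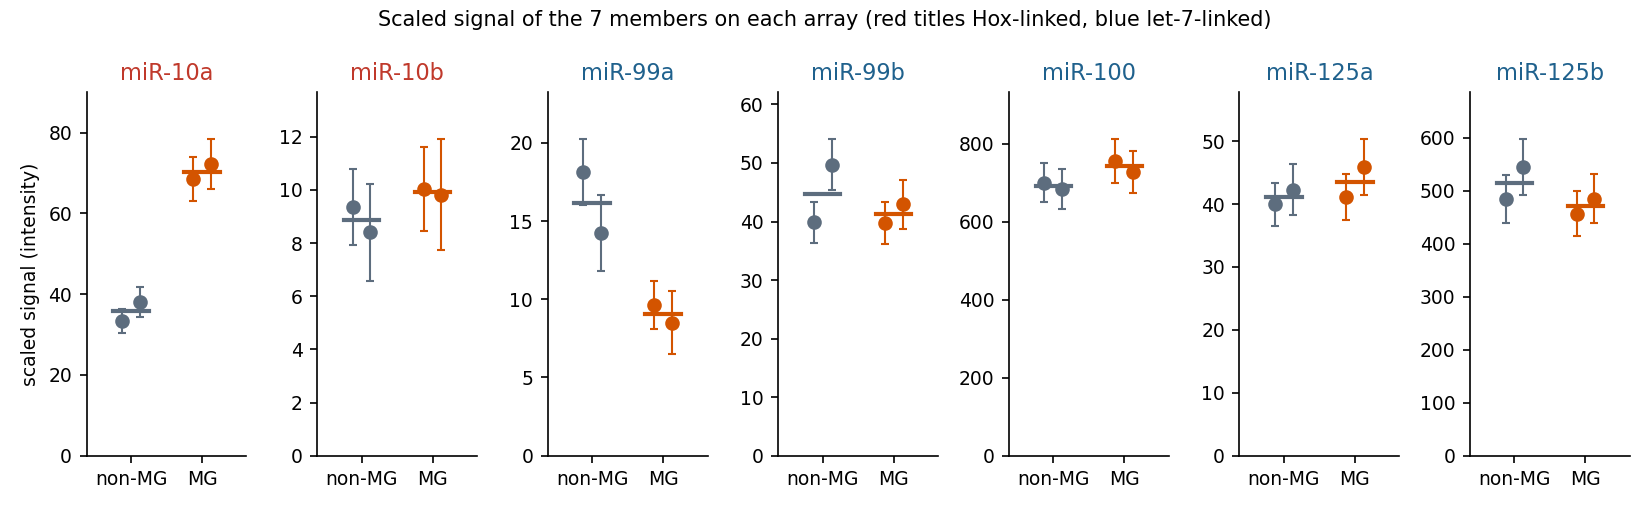
Scaled signal (intensity, linear axis from 0, a separate scale for each panel) of the 7 members on the 2 non-MG arrays (grey) and the 2 MG arrays (orange). Points are arrays, their bars the scanner's error, and horizontal lines the group means. The MG arrays of miR-10a, 68.5 and 72.1, lie far above its non-MG arrays, those of miR-99a, 9.62 and 8.50, lie below, and the other 5 members differ little.

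Among the members with the seed ACCCGUA, miR-99a was lower in MG cells, while miR-99b and miR-100 differed little. Scaled signals of miR-99a, the member from chromosome 21, were 18.1 and 14.2 in the non-MG samples and 9.62 and 8.50 in the MG samples. The groups did not overlap. The means were 16.2 ± 2.75 (SD, n = 2) in non-MG cells and 9.06 ± 0.790 (SD, n = 2) in MG cells, a fold change of 0.563, or 1.78-fold lower in MG cells, with a pooled SD of 0.20 on the log2 scale. This was the change of rank 4 from the lowest among the 115. The signal was dim, with a scanner error of 11.6% to 23.8%, and only 4 to 8 of its 16 spots on an array were well above background.

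Scaled signals of miR-99b, from the chromosome 19 cluster, were 39.9 and 49.7 in the non-MG samples and 39.7 and 42.9 in the MG samples. The groups overlapped, with a fold change of 0.928 and a pooled SD of 0.17 on the log2 scale. Scaled signals of miR-100, from chromosome 11, were 699 and 684 in the non-MG samples and 755 and 728 in the MG samples. The groups did not overlap, but the fold change was only 1.07, with a pooled SD of 0.03 on the log2 scale and a scanner error of 7.14% to 7.39%. Before scaling its groups overlapped, with 738 and 649 in the non-MG samples and 768 and 715 in the MG samples. The difference in log2 change between miR-99a and miR-100, whose sequences differ by U16A alone, was -0.93 with an SD of 0.17 over the arrays.

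Neither lin-4 relative separated the groups in scaled signal. Scaled signals of miR-125a were 40.0 and 42.3 in the non-MG samples and 41.1 and 45.8 in the MG samples, a fold change of 1.06 with a pooled SD of 0.09 on the log2 scale. Scaled signals of miR-125b were 484 and 545 in the non-MG samples and 457 and 485 in the MG samples, a fold change of 0.916 with a pooled SD of 0.09 on the log2 scale. In both, arrays of MG and non-MG cells overlapped, but in miR-125b only by a hair. Its scaled signal was 484.9 in MG replicate 2 and 484.4 in non-MG replicate 1. Before scaling its groups did not overlap, with 511 and 517 in the non-MG samples and 464 and 476 in the MG samples.

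**Figure D2:**
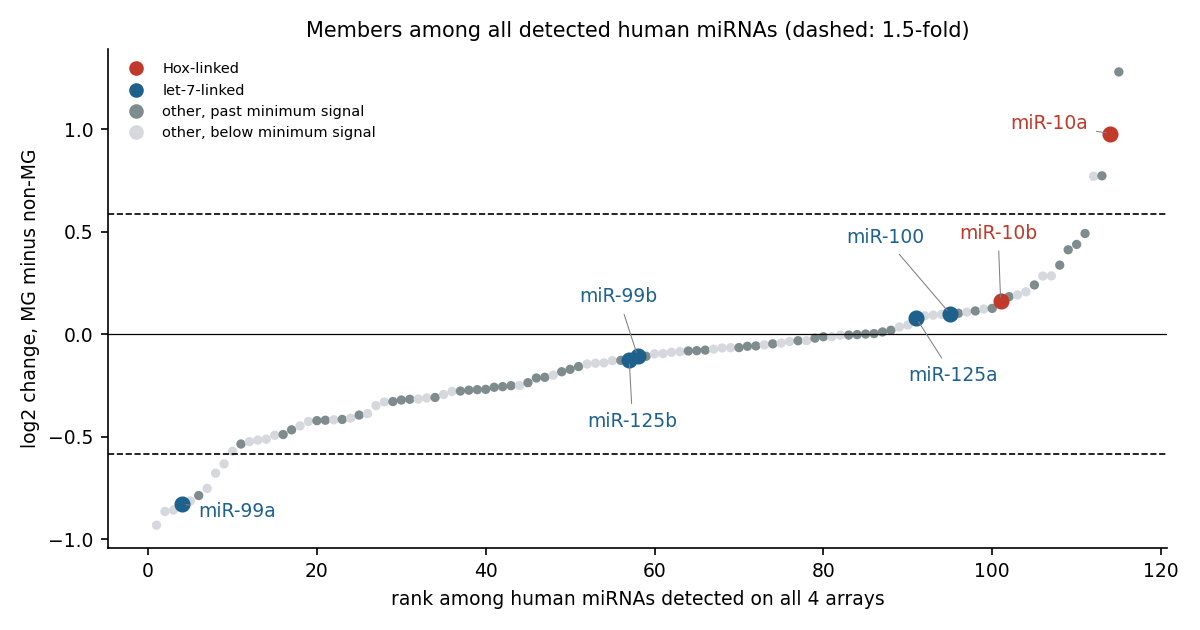
Log2 change, MG minus non-MG, of the 115 human miRNAs detected on all 4 arrays, ordered from the lowest to the highest change, with the Hox-linked members in red and the let-7-linked members in blue. Dark grey points are other miRNAs past the minimum signal of 50 and light grey points those below it. Of the members only miR-10a and miR-99a lie beyond the dashed lines at 1.5-fold, and the other 5 lie between log2 changes of -0.13 and 0.16.

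In scaled signal the groups did not overlap in 4 of the 7 members, miR-10a, miR-10b and miR-100 with MG above and miR-99a with MG below. Over the 115 human miRNAs detected on all 4 arrays this held for 55.7%, with MG above in 18 and below in 46. The members' count was thus near the share of the whole array. Before scaling, the groups of miR-10b and miR-100 overlapped and those of miR-125b did not. A change of at least 1.5-fold was found in 2 of the 7, miR-10a and miR-99a, compared with 11.3% of the 115, of which 4 were higher and 9 lower in MG cells. Among the 57 human miRNAs past the minimum signal the share was 7.02%, and miR-10a was the member among them. A two-sided limma test with Benjamini-Hochberg adjustment called 24.6% of the 57, including 1 of the 3 members past the minimum, miR-10a. In that fit all 57 were given the same variance, so a call followed the size of the change and not each miRNA's own spread. Over the 115, limma called 9.57%, including 2 of the 7 members, miR-10a and miR-99a. With no minimum, over 139 miRNAs, 0 of the 7 members were called, and with the totals in the scanner files, a column described with miR-10b, 0 of the 4 members tested. After quantile normalization miR-100 was called beside miR-10a. Nothing is read from these member counts, since the group was picked with this contrast known. An exact permutation test of 2 arrays against 2 has only 6 arrangements and cannot give a two-sided p below 0.333.

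The median log2 change was 0.08 over the 7 members, -0.11 over the 115 and -0.08 over the 57, and 84 of the 115 were lower in MG cells. The mean log2 change of the Hox-linked members was 0.57, which was made up of 0.98 for miR-10a and 0.16 for miR-10b. That of the let-7-linked members was -0.18, with a median of -0.11. This median equals that over the 115 because miR-99b is the middle value of both. Without miR-99a the mean of the let-7-linked members was -0.01. The mean log2 signal of the Hox-linked members minus that of the let-7-linked members was -2.49 and -2.51 in the non-MG samples and -1.75 and -1.76 in the MG samples. These differences contain the strength of the probes and only their change between arrays can be read, a shift of 0.75 towards the Hox-linked members in MG cells. The shift was 0.58 without miR-99a. It was not computed without miR-10a, whose change of 0.98 made up most of the Hox-linked mean.

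Each member was read by 2 probes of 8 spots each, and the probes of 1 miRNA give a second reading of the same RNA. Both probes of miR-10a gave the same change. The first had scaled signals of 23.2 and 26.2 in the non-MG samples and 46.7 and 50.8 in the MG samples, a fold change of 1.98. The second had 10.2 and 11.9 in the non-MG samples and 21.8 and 21.3 in the MG samples, a fold change of 1.97. Both probes thus separated the groups with MG above.

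The probes of miR-100 moved apart. The first had scaled signals of 394 and 378 in the non-MG samples and 476 and 466 in the MG samples, a fold change of 1.22. The second had 305.5 and 305.6 in the non-MG samples and 280 and 262 in the MG samples, a fold change of 0.885. The groups did not overlap with either probe, MG being above with one and below with the other, and the small change of the summed signal therefore lies between opposite changes. The same held for miR-125b. Its first probe had 455 and 523 in the non-MG samples and 426 and 454 in the MG samples, a fold change of 0.901 with MG below, and its second probe had 29.2 and 21.4 in the non-MG samples and 30.6 and 31.3 in the MG samples, a fold change of 1.24 with MG above.

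With both probes of miR-99b and of miR-125a the groups overlapped, with fold changes of 0.817 and 0.980 for miR-99b and of 0.977 and 1.09 for miR-125a. The other members rested on 1 probe. The second probe of miR-99a had a negative background-subtracted signal on all 4 arrays, -1.50 to -0.94 before scaling, with errors of 1.12 to 1.80. The first probe of miR-10b was above 3 errors on 0 of the 4 arrays. A second reading was thus not available for the changes of miR-99a and miR-10b.

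**Figure D3:**
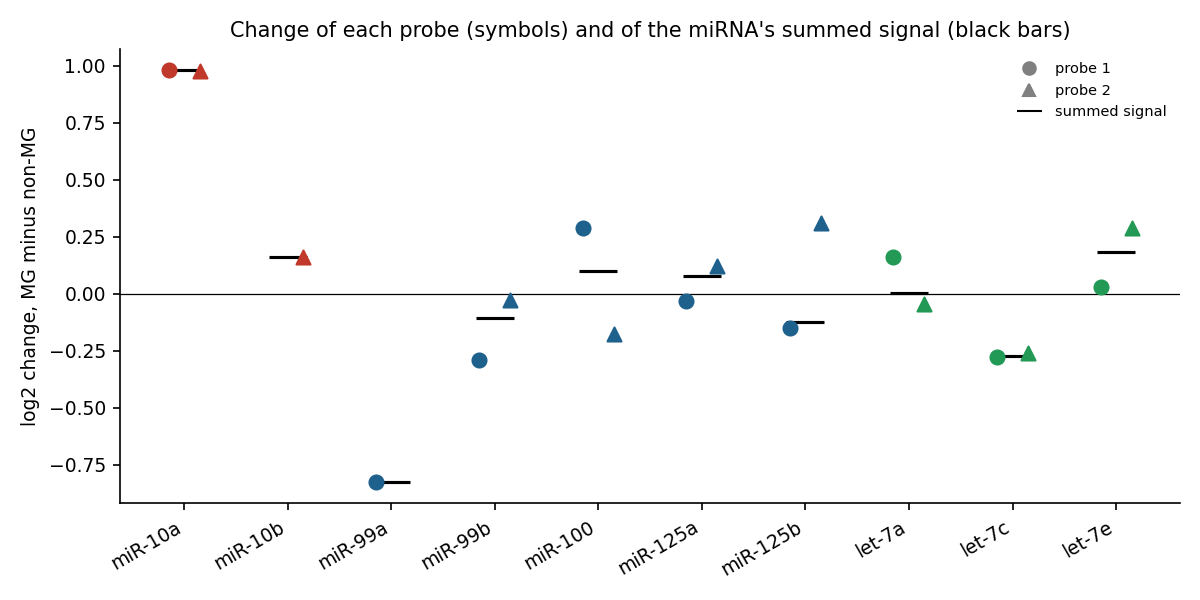
Log2 change, MG minus non-MG, of each probe (circle, probe 1, and triangle, probe 2) and of the summed signal (black bar) for the 7 members and the 3 let-7 miRNAs of their clusters (green). Probes not above 3 errors are not drawn. The 2 symbols of miR-10a coincide, those of miR-100 and of miR-125b lie on opposite sides of 0, and miR-99a and miR-10b have 1 symbol each.

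The let-7 neighbours of the members were read on the same arrays. Scaled signals of let-7c, the neighbour of miR-99a on chromosome 21, were 82.8 and 105 in the non-MG samples and 77.1 and 77.1 in the MG samples. Both MG arrays lay below, with a fold change of 0.828 (adjusted p = 0.191, two-sided limma test over the 57 miRNAs), so that let-7c, like miR-99a, had its MG arrays lower but did not pass the test. Its probes gave 0.825, with MG below, and 0.836, with overlapping groups. Of the chromosome 21 cluster's products, miR-99a and let-7c are those that RefSeq assigns to a single gene. In sequence let-7c differs from let-7a by A19G alone, and let-7e differs from let-7a by U9G alone. Binding of their probes by let-7a was not tested.

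Scaled signals of let-7a were 1413 and 1308 in the non-MG samples and 1387 and 1335 in the MG samples, a fold change of 1.00 with overlapping groups (adjusted p = 0.993, limma). Scaled signals of let-7e, which stands between miR-99b and miR-125a on chromosome 19, were 141 and 150 in the non-MG samples and 162 and 168 in the MG samples. Its MG arrays lay above, with a fold change of 1.14 (adjusted p = 0.406, limma), while both of its neighbours overlapped between the groups. Only 1 of its 2 probes put MG above, with a fold change of 1.22, and with the other, at 1.02, the groups overlapped. The standard error of each of these log2 changes was 0.15 in the limma fit, which gave all 57 miRNAs the same variance. The adjusted p-values thus follow the size of each change and not the spread of its own arrays. Of the 3 let-7 miRNAs tested, limma called 0, and 0 had an unadjusted p under 0.05.

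Other miRNAs of the HOX clusters gave no call. MIR196A1, like MIR10A, lies among the HOXB genes on chromosome 17, and mature miR-196a is also made from a gene on chromosome 12. The groups overlapped for miR-196a, with a fold change of 0.943, and for miR-196b, from the HOXA genes on chromosome 7, with 0.905. Both were below the minimum signal. In the limma fit over the 115 miRNAs the adjusted p was 0.803 for miR-196a and 0.708 for miR-196b. The 2 arms of miR-615, from the HOXC genes, were detected on 0 arrays, as were all 8 opposite arms of the members' own precursors.

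Profiles most like that of miR-10a were sought among the 57 miRNAs by the Euclidean distance between log2 signals centred on their mean over the 4 arrays. The nearest were miR-27b-3p at 0.27, miR-23b-3p at 0.40 and miR-1274b at 0.58, compared with a median distance of 1.097 over all. Their fold changes were 1.71, 2.43 and 1.41. The study set miR-1274b aside as a dead entry of miRBase, but it was kept among the 57 here. The mean profile of miR-100 and miR-125b, the let-7-linked members past the minimum, was nearly flat, and nearest to it were miR-331-3p at 0.04, miR-15b-5p at 0.07 and miR-16-5p at 0.10, compared with a median of 0.32. These 3 had fold changes between 0.968 and 0.999. With 4 arrays in 2 groups, a small distance mainly says that the change between the groups was of like size.

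The scanner files also hold a total per miRNA, and for miR-10b this total gave another picture. It was 45.1 and 44.1 in the non-MG samples and 79.8 and 80.5 in the MG samples, before scaling. The probes of miR-10b itself summed to 9.88 and 7.97 in the non-MG samples and 10.2 and 9.64 in the MG samples. On every array the excess equalled, within 0.1%, the summed signal of miR-10a, the entry just before it in the order of names. With the totals in place of the probe sums, the fold change of miR-10b was 1.54 instead of 1.12. None of the other 6 members had a total above its own probes, but the total of miR-126-3p held the signal of miR-125b, 511 and 517 in the non-MG samples and 464 and 476 in the MG samples, on top of its own 6.27 to 10.4. Across the files a total lay above the probe sum for 48 miRNAs, in 126 pairs of miRNA and array, and in 124 of these pairs the excess equalled the signal of the entries just before.

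**Figure D4:**
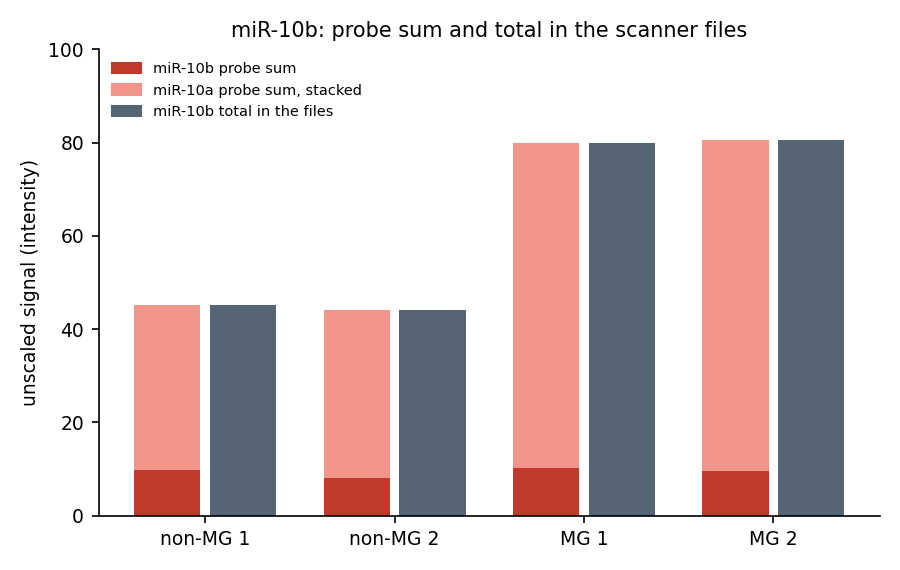
Unscaled signal (intensity, axis from 0) on each of the 4 arrays of the probe sums of miR-10b (dark red) and miR-10a (light red, stacked on it) beside the total that the scanner files give for miR-10b (grey). The stacked and grey bars reach the same height on each array, 44.1 to 80.5, and the part that is miR-10b itself stays between 7.97 and 10.2.

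The members differed in how far their change held under 12 alternatives, which included leaving out 1 array at a time. Some of the 12 could not move a value. The authors' deposited values match the probe sums, and a floor of 10 lies below every signal of miR-10a. The fold change of miR-10a stayed above 1.5 in 11 of the 12. Its lowest value, 1.34, came under normexp, a model-based background correction that adds a constant to each spot. Such a constant by itself draws fold changes towards 1. Leaving out 1 array at a time gave 1.85 to 2.08. The fold change of miR-99a was below 1 in all 12 and past 1.5-fold in 10, and it was 0.914 under normexp and 0.681 after quantile normalization. Leaving out 1 array at a time gave 0.493 to 0.635. That of miR-10b ran from 1.00, with a floor of 10, to 1.54, with the totals. That floor lies above every scaled signal of miR-10b except the 10.04 of MG replicate 1, so a fold change near 1 was fixed in advance. It also lies above both MG signals of miR-99a, 9.62 and 8.50. For the other 4 members no alternative passed 1.5-fold. With the totals the value was 0.794 for miR-99b, 0.918 for miR-100, 0.904 for miR-125a and 0.784 for miR-125b, since the totals also changed the scaling, and in miR-100 and miR-125a this turned the direction. The direction also turned in miR-99b without non-MG replicate 2, at 1.02, and in miR-125a without MG replicate 2, at 0.978.

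**Figure D5:**
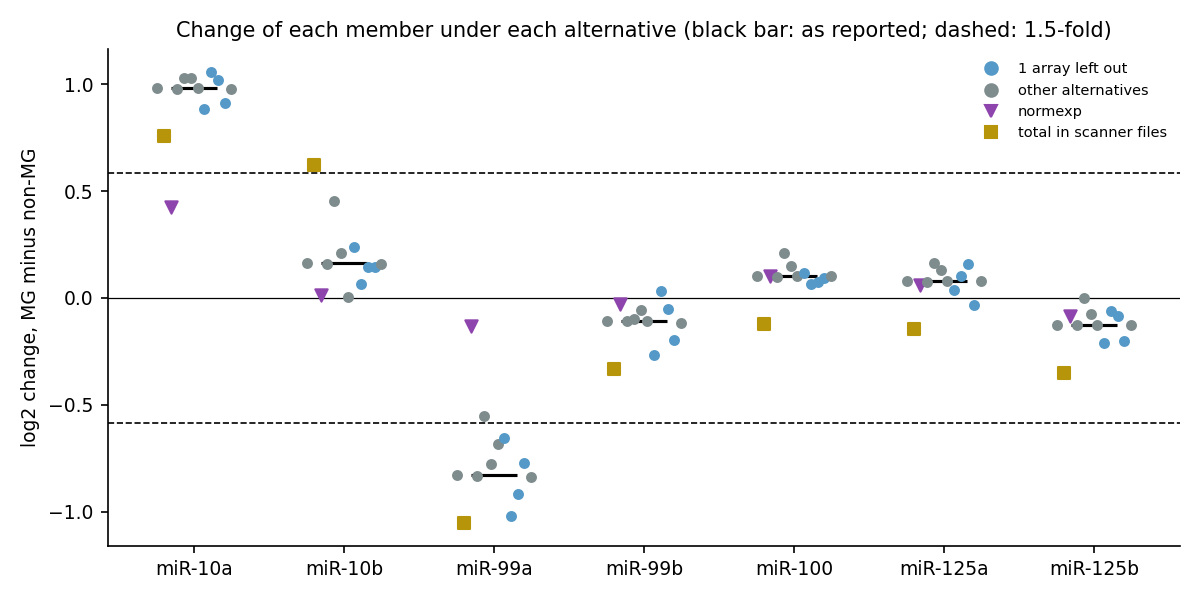
Log2 change, MG minus non-MG, of each member as reported (black bar) and under each of 12 alternatives, with 1 array left out (blue), normexp background correction (purple), the totals in the scanner files (yellow) and other alternatives (grey). Only miR-10a, miR-99a and, with the totals, miR-10b lie past the dashed lines at 1.5-fold, and normexp draws miR-10a to a fold change of 1.34 and miR-99a to 0.914.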

How the data were processed

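miRNA expression in 2 MG and 2 non-MG samples of HCT116 cells was read from 4 Agilent miRNA arrays with a single dye. The authors deposited files of Feature Extraction (version 10.7.1.1), with background-subtracted intensity values not normalized between arrays, and a table of unnormalized intensity values, 1 per miRNA and array. Groups were taken from sample titles and characteristics, since the description of every sample reads control, and the labelling text names a kit for gene expression cRNA although the arrays measure miRNAs. The probe sum used here equals that table for all 142 miRNAs detected, within 5.73e-05%. A normalization or test for the arrays is not given in the sources used here.

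Control spots were left out. Each array was divided by its 75th percentile over the 116 miRNAs that all 4 arrays detected (158 and 142 for non-MG, 153 and 148 for MG) and returned to a common level, and log2 was taken with a floor of 1. The 57 human miRNAs that reached 50 before scaling on any array entered a two-sided comparison by limma 3.58.1 (lmFit, eBayes, p-values adjusted by Benjamini-Hochberg, threshold 0.05) in R 4.3.3, without a replicate block, after a test on simulated data. Python 3.11.15 with pandas 2.3.3 read the files. The members, the lists and the named miRNAs (all members, their cluster neighbours and opposite arms, and the 3 nearest profiles) were chosen with earlier results of these data known. The fit over the 115 human miRNAs detected on all 4 arrays and the sets without miR-99a or below the minimum were added after seeing the data. For normexp (offset 50), which used spot and local background medians, spots marked as outliers were left out. The scanner files name the build GRCh37, which is not that of the sequences, so no positions are given.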

Additional observations from a re-analysis of the deposited data

How the results depend on the processing

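With 57 miRNAs, limma called 14. It called 0 with the totals in the scanner files (28 had an unadjusted p under 0.05), 6 without normalization, 9 with a minimum of 100, 1 with no minimum, and 3 to 11 with 1 array left out, fewest without non-MG replicate 2. These last fits assume that the lone array of a group varies like the other group, so their counts do not measure the stability of the calls. With the replicate number as a block it called 8. Deviations of same-numbered arrays correlated at 0.48, but 2 pairs are too few to settle a pairing and the labels name no shared batch, so whether the numbers pair the arrays is not known. A change of 1.5-fold was found in 4 of the 57. The count was 32 of 89 with the totals, 1 of 57 with normexp and 1 of 44 with a minimum of 100. It was 32 of 139 with no minimum and 13 of the 115 detected on all 4 arrays. The mean log2 change of the Hox-linked members was 0.69 with the totals, 0.22 with normexp, 0.74 with quantile normalization, 0.62 with median scaling, 0.49 with a floor of 10, and 0.53 to 0.58 with 1 array left out. That of the let-7-linked members was -0.40, -0.015, -0.056, -0.13 and -0.15 under the same alternatives, -0.22 to -0.16 with 1 array left out, and -0.014 without miR-99a. The difference between these means was 1.09 with the totals, 0.23 with normexp, 0.80 with quantile normalization, 0.64 with a floor of 10, 0.58 without miR-99a, and 0.74 to 0.76 with 1 array left out. Over members past the minimum it was 0.99, a value that the minimum itself makes large, since its Hox-linked side is miR-10a alone, which passed only through the MG arrays. No mean changed sign. Normexp adds a constant, 50, to each spot, which by itself draws fold changes towards 1. The floor of 10 does the same where signals lie below it, as in miR-10b and miR-99a. How far these settings account for the moves was not tested. The cause of the other moves was not tested either, except for the totals and leaving out miR-99a. The slide could not be used as a block, since all arrays lay on 1 slide. Dim signals limit miR-10b and miR-99a most.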
